A study of Mus musculus with 6 samples.

Results

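The cells described here are the 150 cells that carry cluster number 5 in the deposited cell table of the Day 7 libraries, out of 3542 Day 7 cells and 38651 cells in the whole series. They came from wild type mice immunised with NP-haptenated antigen in alum, whose splenic germinal centre B cells were sorted at Day 7 as B220+ CD38- GL7hi and profiled in 2 libraries by droplet sequencing of RNA 5′ ends. Cluster 5 held 49 of 1012 cells in replicate 1 (4.84%, exact 95% interval 3.60 to 6.35) and 101 of 2530 cells in replicate 2 (3.99%, interval 3.26 to 4.83), or 4.42% ± 0.601 (SD, n = 2 libraries). The Day 14 libraries (2, also wild type) were sorted as B220+ CD95hi GL7hi IgD- cells. That gate also gave 2 chimaera libraries at Day 14, 1 from irradiated Il4ra+/+ hosts (control) and 1 from irradiated Ccl19Cre/+ Il4raf/f hosts (KO), in which Cre acts in Ccl19-expressing stromal cells; all these hosts were rebuilt with wild type bone marrow. The labels do not say that the replicates were separate animals, so the spread between them may be technical.

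Plasma cells and their dividing precursors, plasmablasts, are the antibody-secreting end of the B cell lineage. The repressor Blimp-1, encoded by Prdm1, shuts down the B cell programme, while IRF4 and the unfolded protein response factor XBP1 build an enlarged endoplasmic reticulum (ER) in which antibody chains are folded, glycosylated and shipped out. In the germinal centre reaction, cells that leave towards this fate give up Bcl6, the regulator of the germinal centre state.

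Cluster 5 carried the plasma cell label by all 6 of its markers. Values are the summed counts of a gene in a cell group of a library, scaled to a total of 1e+06 counts (CPM), and ratios are log2 ratios of cluster 5 to the other Day 7 cells of the same library, given as mean ± SD over the 2 libraries. Prdm1 (chr10:44437174-44528558 in mm10) stood at 207 and 177 CPM in replicates 1 and 2 of cluster 5, against 3.35 and 4.04 CPM in the other cells (log2 5.70 ± 0.35). Sdc1, which encodes the plasma cell surface proteoglycan CD138, was at 60.4 and 51.3 CPM against 0.361 and 0.345 CPM (log2 7.30 ± 0.12). Slpi, a secreted protease inhibitor, was at 6970 and 11463 CPM against 93.2 and 145 CPM (log2 6.27 ± 0.06). All 3 genes were far higher in cluster 5 in each library. Prg2, a granule protein gene also expressed by eosinophils, was at 1120 and 843 CPM against 6.03 and 9.98 CPM (log2 6.97 ± 0.80). Fkbp11, an ER prolyl isomerase gene, was at 103 and 117 CPM against 0.361 and 0.230 CPM (log2 8.58 ± 0.59). Bhlha15, which encodes the secretory cell factor MIST1, was at 48.5 and 45.3 CPM against 0.206 and 0.115 CPM (log2 8.25 ± 0.53). Because the markers name the cluster, and the cells were clustered on gene expression, these contrasts and all those with the other Day 7 cells below are descriptions and were not tested.

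**Figure D1:**
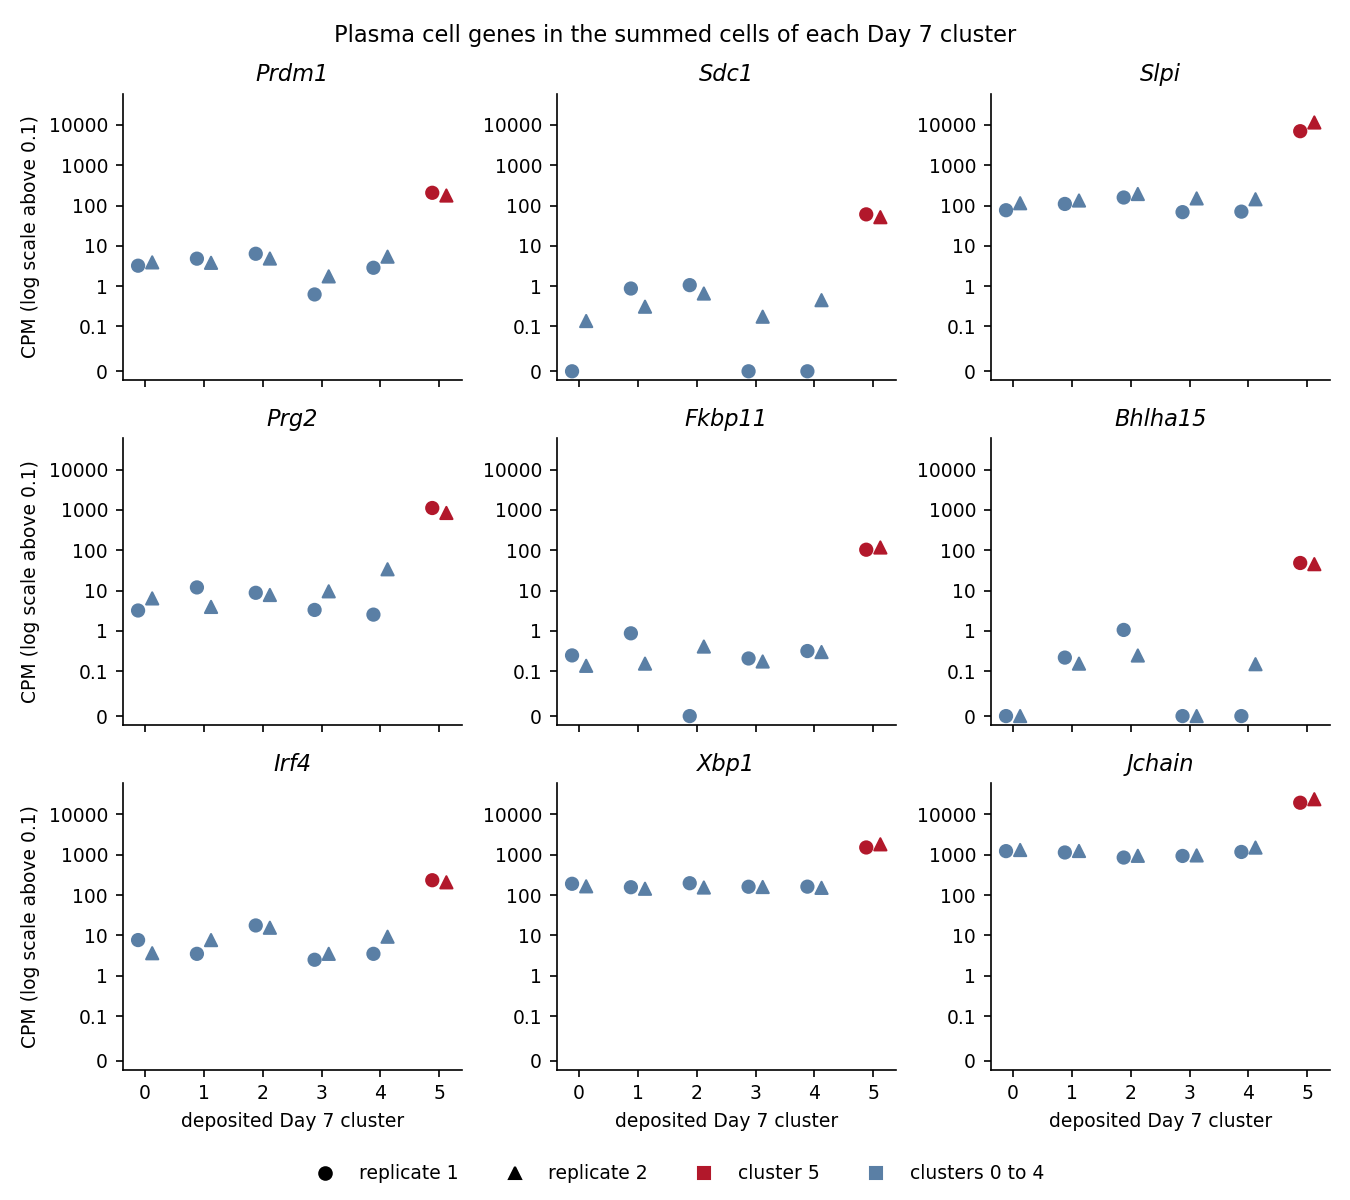
CPM (log scale above 0.1, with 0 shown) of the 6 markers and of Irf4, Xbp1 and Jchain in the summed cells of each deposited Day 7 cluster, circles for replicate 1 and triangles for replicate 2. Cluster 5 stands above clusters 0 to 4 in each panel, for Sdc1 at 60.4 and 51.3 CPM.

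Cell by cell the markers were less complete than their sums. After each cell was thinned to 5000 UMIs, which dropped no cell, Prdm1 was seen in 55.1% and 49.5% of cluster 5 cells and in 1.87% and 1.61% of the other cells. Sdc1 was seen in 30.6% and 17.8%, against 0.104% and 0.124%, and without thinning in 40.8% and 35.6%, against 0.623% and 0.700%. Slpi was the least selective by cells with a UMI, at 53.1% and 78.2% against 23.6% and 29.0%. Before thinning, the median depth was 16542 and 16340 UMIs in cluster 5 and 17279 and 18306 UMIs in the other cells. At the thinned depth 137 of 150 cells (91.3%) had a UMI of at least 1 marker and 38 (25.3%) of at least 4, while among 3392 other cells 1012 (29.8%) had at least 1 and 0 had 4. All intervals given here cover counting error only. With all UMIs, 5 cluster 5 cells had none of the markers, 20 had all 6, and 2 cells outside the cluster had 4 or more.

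**Figure D2:**
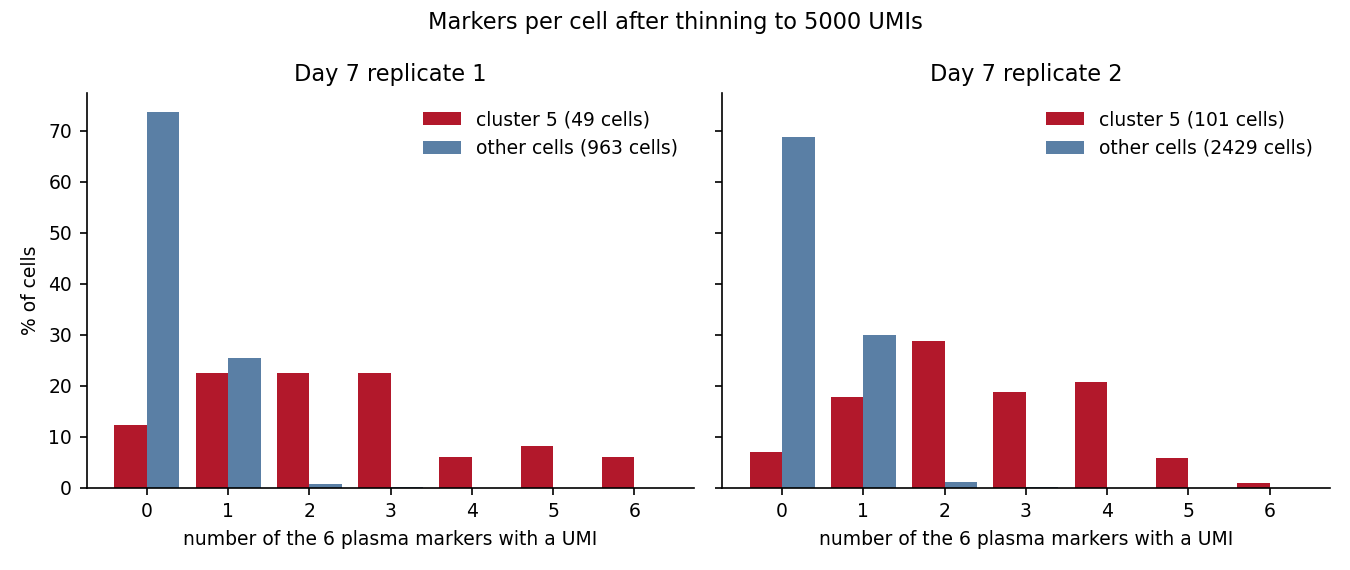
Percent of cells by how many of the 6 markers had a UMI, for cluster 5 and the other cells of each Day 7 library after thinning to 5000 UMIs per cell. Of the cluster 5 cells 25.3% reach at least 4 markers, and of the other cells none does.

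Markers of other cell types were low or absent in cluster 5, with exceptions. Of 9 eosinophil, basophil and mast cell markers, 8 had no count in cluster 5 (Epx, Ear1, Ear2, Siglecf, Ccr3, Mcpt8, Cpa3 and Ms4a2), and the list summed to 5.39 and 2.73 CPM. The T cell genes Cd3e, Cd4 and Cd8a had none either, and that list summed to 157 and 153 CPM against 200 and 194 CPM in the other cells. Of 9 myeloid markers 3 were at 0 (Adgre1, S100a8 and S100a9), and the list summed to 89.4 and 99.9 CPM against 30.8 and 11.9 CPM. Cd68, a lysosomal protein gene, made up most of that sum, at 71.1 and 90.1 CPM against 7.93 and 10.4 CPM. The plasmacytoid dendritic list summed to 345 and 348 CPM against 81.4 and 91.1 CPM, through Bst2 and Pacsin1, while Klk1 and Grm8 were at 0. The erythroid list went the other way, at 41.0 and 13.1 CPM against 669 and 221 CPM, and its Hbb-bs counts outside cluster 5 lay mainly in cluster 3 (1150 and 863 CPM). The part of other cells in these values was not tested. Ptprc, which encodes the B220 antigen of the sorting gate, was at 301 and 320 CPM in cluster 5.

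The Day 7 table lists 27998 gene symbols, none of them an immunoglobulin gene, so antibody transcripts themselves were not measured. Cluster 5 held 927915 and 1831256 UMIs, the other cells 19412018 and 52179426. Median mitochondrial shares were 2.36% and 2.41% in cluster 5, against 2.69% and 2.64%. The libraries shared 1 cell barcode, which was in no cluster 5 cell.

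A gene was counted as measured when it reached 20 CPM in cluster 5 or in the other cells of both libraries, and as higher or lower when its log2 ratio passed 1 in size in the same direction in both. Of 5810 measured genes, 491 were higher in cluster 5 (8.45%) and 421 were lower (7.25%), with a median log2 ratio of -0.19 over all of them. The log2 ratios of the 2 libraries had a correlation of 0.926 across these genes, which are not independent replicates. Asking for the same size in 1 library only raised the lower count to 684 without replicate 1 and 694 without replicate 2, and the higher count to 648 and 640. Hid1, which takes part in dense core granule formation, had the largest ratio, at 51.7 and 45.9 CPM against 0 and 0.0575 CPM in the other cells. Its log2 ratio was at least 8.39 in replicate 1, against a floor of 3 counts, and 9.64 in replicate 2 (interval 8.04 to 11.95, from 3 counts). Gpx3, a secreted glutathione peroxidase gene, was at 39.9 and 38.2 CPM against 0.0515 and 0.192 CPM (log2 9.60 with an interval of 7.03 to 14.94 from 1 count in the other cells, and 7.64). Ckap4, which shapes rough ER sheets, was at 114 and 131 CPM (log2 7.30), Entpd1, the ectonucleotidase CD39, at 21.6 and 34.9 CPM (log2 6.98), and Ctla4, an inhibitory receptor better known on T cells, at 79.7 and 83.5 CPM (log2 6.35). These genes stood next to the markers in size.

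Among transcription factors and their partners, 8 of 12 measured genes were higher and 0 lower (median log2 2.98), beside 8.45% and 7.25% of all measured genes. Irf4, which drives plasma cell commitment, was at 234 and 208 CPM against 6.18 and 8.11 CPM (log2 4.96 ± 0.40). Xbp1 was at 1518 and 1816 CPM against 172 and 155 CPM (log2 3.35 ± 0.29). Ern1, which encodes the ER sensor IRE1 that splices Xbp1 mRNA, was at 34.5 and 36.6 CPM against 1.34 and 1.30 CPM (log2 4.75). Creb3l2, an ER-bound factor, had a log2 ratio of 6.24, Ell2, an elongation factor used in the switch to secreted antibody mRNA, one of 2.61 and Atf6, another ER stress sensor, one of 1.57. The 4 members short of the size rule were Pou2af1 (0.72), Eaf2 (0.64), Cebpg (0.36) and Zbtb20 (-0.95).

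Of 20 listed surface and secreted products 13 were measured, and 9 of those were higher and 0 lower, beside 8.45% and 7.25% of all measured genes. Jchain, which links polymeric antibodies, was at 19538 and 23849 CPM against 1072 and 1195 CPM (log2 4.25 ± 0.09). Mzb1, an ER cofactor for antibody assembly, was at 4483 and 5421 CPM against 894 and 752 CPM (log2 2.59). Both genes were also counted in most other cells, with Jchain seen in 93.0% and 94.9% of them after thinning. Epcam, an adhesion molecule gene, was at 109 and 96.1 CPM against 2.37 and 3.26 CPM (log2 5.20). Ly6c2 differed between the libraries, at 214 CPM in replicate 1 and 66.6 CPM in replicate 2, yet lay well above 1.96 and 0.56 CPM in the other cells of each (log2 6.84). Tnfrsf17, which encodes the survival receptor BCMA, was not measured by the rule, at 10.8 and 7.10 CPM against 0.155 and 0.0767 CPM.

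The ER folding machinery was high as a group. Of 21 measured genes of the unfolded protein response and chaperone list, 19 were higher and 0 lower, beside 8.45% and 7.25% of all measured genes. The median log2 ratio was 2.47, against -0.19 over all genes. Hsp90b1, the ER chaperone GRP94, was at 4270 and 4870 CPM against 211 and 227 CPM (log2 4.38 ± 0.06). Pdia4, a disulphide isomerase gene, was at 997 and 1184 CPM (log2 4.84). Hspa5, the chaperone BiP, was at 2105 and 2082 CPM against 344 and 328 CPM (log2 2.64 ± 0.04). The list members differed in the size of their ratio far more than the libraries did: Creld2 had 3.83, Dnajb9 3.72, Manf 3.09, Dnajc3 2.67 and Calr 2.47. The 2 members short of the rule were Ero1lb, an ER oxidase gene, at 232 and 266 CPM against 121 and 93.7 CPM, and Canx, which encodes a lectin chaperone, with 0.84.

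ER-associated degradation, which removes misfolded proteins, had 10 of 15 measured genes higher and 0 lower (median 1.46), beside 8.45% and 7.25% overall among measured genes. Derl3, a channel component, was at 551 and 662 CPM (log2 4.69), and Edem1, a mannosidase-like lectin that marks misfolded glycoproteins, at 775 and 869 CPM against 88.6 and 82.0 CPM (log2 3.27). Ube2g2 (0.64) and Ufd1l (0.74), which act on the cytosolic side, were below the size rule.

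The promoters of some of these genes hold the ER stress response element (CCAAT, a spacer of any bases and CCACG), which ATF6 and XBP1 are known to read. It was searched, with its spacer of fixed length, on both strands from 250 bases before to 50 bases after the start in the RefSeq promoters of GRCm38.p6 (mm10). It was found in 39 of 32851 promoters (0.119%), in 10 of 4539 measured genes with a promoter (0.220%), in 7 of 385 higher genes (1.82%) and in 0 of 308 lower genes. Of the 19 higher genes of the chaperone list 16 had a promoter and 6 of those held the element (37.5%), as did 1 of 8 degradation genes (Derl3). It was in none of the matched higher genes of the translocation (10), N-glycosylation (11) and ER to Golgi (17) lists. The shorter element TGACGTGG was in 9 of 385 higher genes (2.34%), 2 of 308 lower genes (0.649%) and 1.48% of measured genes. A match is a description, not a site or a cause. The 8 matches shown lie in 7 chaperone and degradation genes, which are all of the higher genes with the element. Only matches with full flanks within the searched bases before the start are shown. They are given 5′ to 3′ on the strand of the gene, with the element in capitals (where the capitals begin with CGTGG the element lies on the other strand).
Derl3, chr10:75893222-75893280, + strand: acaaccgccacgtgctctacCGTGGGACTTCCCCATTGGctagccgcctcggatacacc
Hsp90b1, chr10:86705513-86705571, - strand: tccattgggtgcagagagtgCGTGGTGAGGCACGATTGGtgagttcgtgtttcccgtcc
Hsp90b1, chr10:86705618-86705676, - strand: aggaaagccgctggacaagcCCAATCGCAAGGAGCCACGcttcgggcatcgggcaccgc
Creld2, chr15:88819500-88819558, + strand: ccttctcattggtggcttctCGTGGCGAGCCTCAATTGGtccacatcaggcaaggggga
Dnajc3, chr14:118937807-118937865, + strand: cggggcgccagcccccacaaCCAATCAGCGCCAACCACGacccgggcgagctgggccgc
Pdia6, chr12:17266471-17266529, + strand: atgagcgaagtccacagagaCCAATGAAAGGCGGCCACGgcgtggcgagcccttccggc
Hspa5, chr2:34772005-34772063, + strand: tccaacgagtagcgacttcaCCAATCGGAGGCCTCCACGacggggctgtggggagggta
Calr, chr8:84847055-84847113, - strand: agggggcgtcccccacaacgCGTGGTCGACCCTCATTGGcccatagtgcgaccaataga
The elements shown began between 65 bases (Hspa5) and 212 bases (the farther match of Hsp90b1) before the start of the gene.

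The steps on either side of folding were high as well. In the ER translocation and signal peptide cleavage list 15 of 22 measured genes were higher and 0 lower (median 1.47). Ssr4, a subunit of the translocon-associated complex, was at 1560 and 1736 CPM against 165 and 173 CPM (log2 3.28), and Sec11c, a signal peptidase subunit gene, at 1276 and 1599 CPM against 215 and 226 CPM (log2 2.70). The signal recognition particle genes Srp14 (0.75) and Srp54b (0.76) were short of the rule. In the N-glycosylation list 13 of 17 were higher and 0 lower (median 1.48). Ddost, a subunit of the oligosaccharyltransferase, was at 573 and 708 CPM against 104 and 109 CPM (log2 2.58), while the alternative catalytic subunit gene Stt3b was at 152 and 162 CPM against 198 and 198 CPM (log2 -0.34). In the ER to Golgi list 20 of 28 were higher and 0 lower (median 1.45). All these counts stand beside 8.45% higher and 7.25% lower over all measured genes. Sec24d, a coat protein that picks cargo, was at 122 and 128 CPM against 11.1 and 12.8 CPM (log2 3.39), and Lman1, a cargo receptor gene, at 436 and 561 CPM against 69.0 and 79.9 CPM (log2 2.74). The 109 distinct genes of these 5 ER and Golgi lists took 4.90% and 5.28% of cluster 5 UMIs, against 1.20% and 1.20% in the other cells. Ribosomal protein genes (97) took 20.9% and 20.5%, against 22.2% and 22.9%. Thus the share of the secretory genes was 4.09 and 4.40 times that in the other cells, whereas the ribosomal share was slightly lower.

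**Figure D3:**
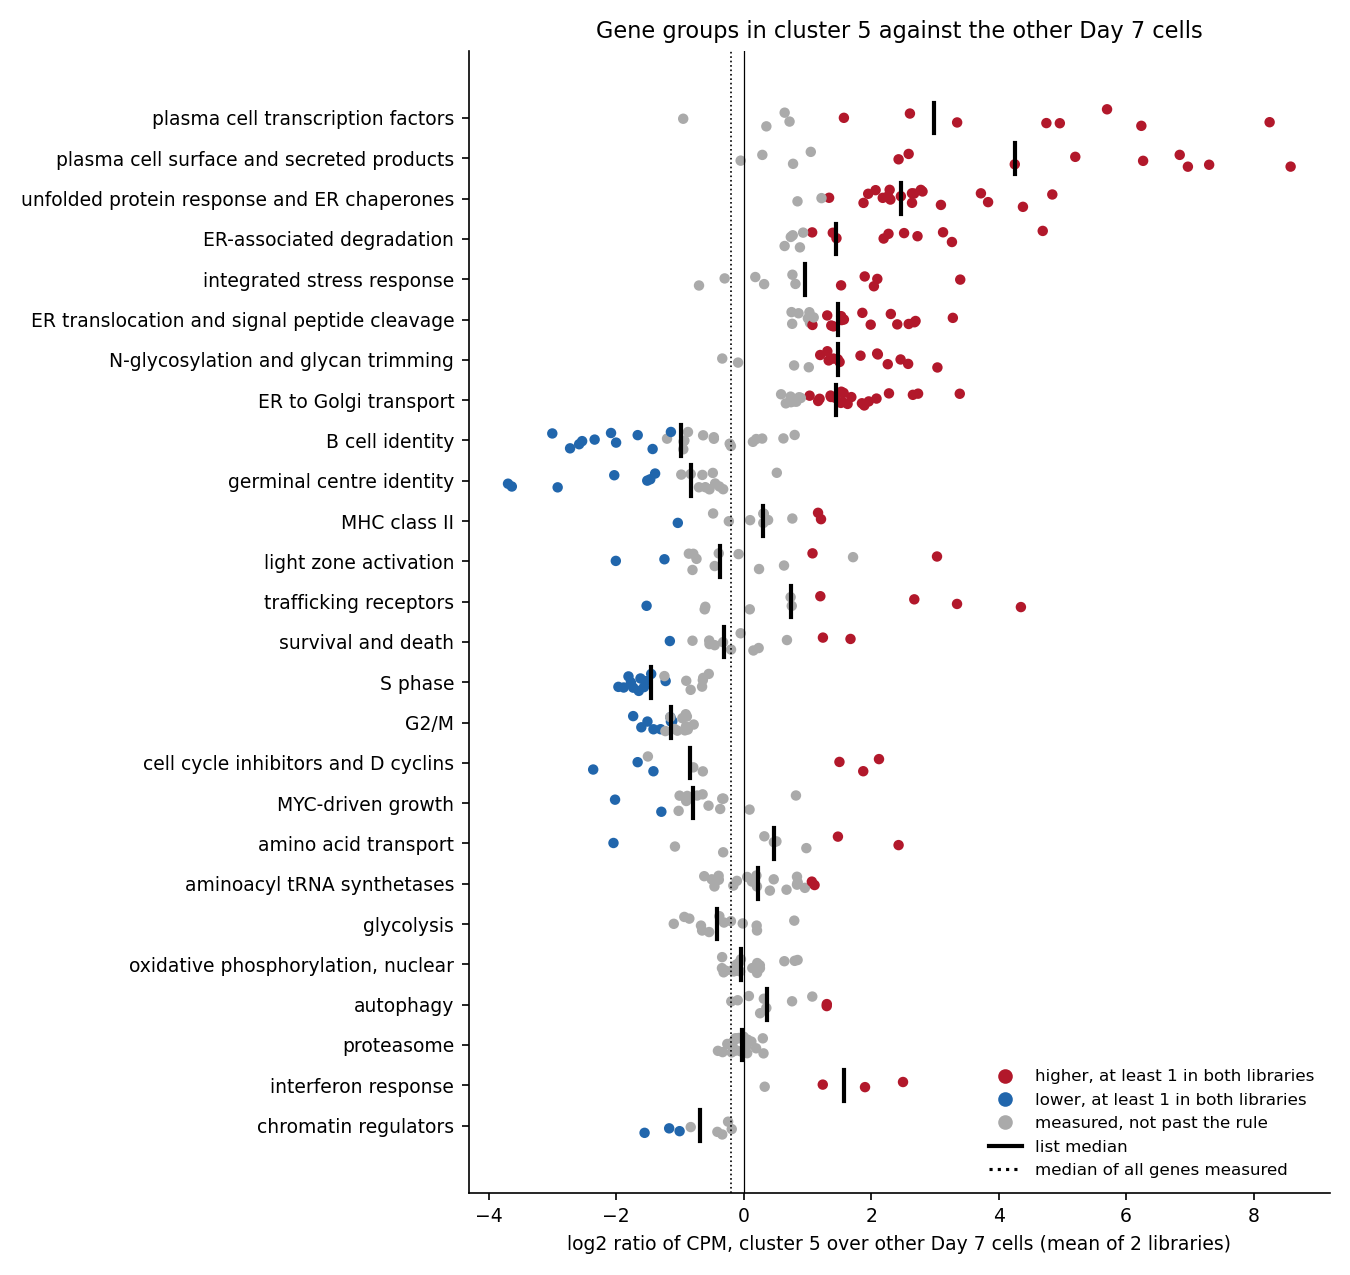
Log2 ratio of CPM in cluster 5 to the other Day 7 cells (mean of 2 libraries) for each measured gene of each list, 1 point per gene, coloured by the size rule, with list medians as bars and the median of all measured genes as a dotted line. The secretory lists lie to the right, with the chaperone list median at 2.47, and the B cell, germinal centre, S phase and G2/M lists to the left.

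The chaperone list was high in nearly every cluster 5 cell, whereas most Slpi and Prg2 counts lay in few of them. With all UMIs, Slpi was still seen in 67.3% and 85.1% of cluster 5 cells, against 42.4% and 53.5% of the other cells. Prg2 was seen in 59.2% and 66.3%, against 6.85% and 8.32%. The chaperone list took a median of 1.93% and 1.86% of a cluster 5 cell's UMIs, against 0.285% and 0.285% in the other cells. In replicate 1, 46 of 49 cells lay above the 95th percentile of the other cells, and in replicate 2, 98 of 101 did. Slpi by contrast passed 1% of the UMIs in 11 of 49 and 25 of 101 cells. The 10 cells with most Slpi, which are a larger part of the cells in replicate 1, held 86.1% and 63.1% of its counts. For Prg2 the top 10 cells held 91.4% and 71.1%, and for Xbp1 46.2% and 31.1%. Jchain lay between, passing 1% in 23 of 49 and 66 of 101 cells and 5% in 11 and 18.

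**Figure D4:**
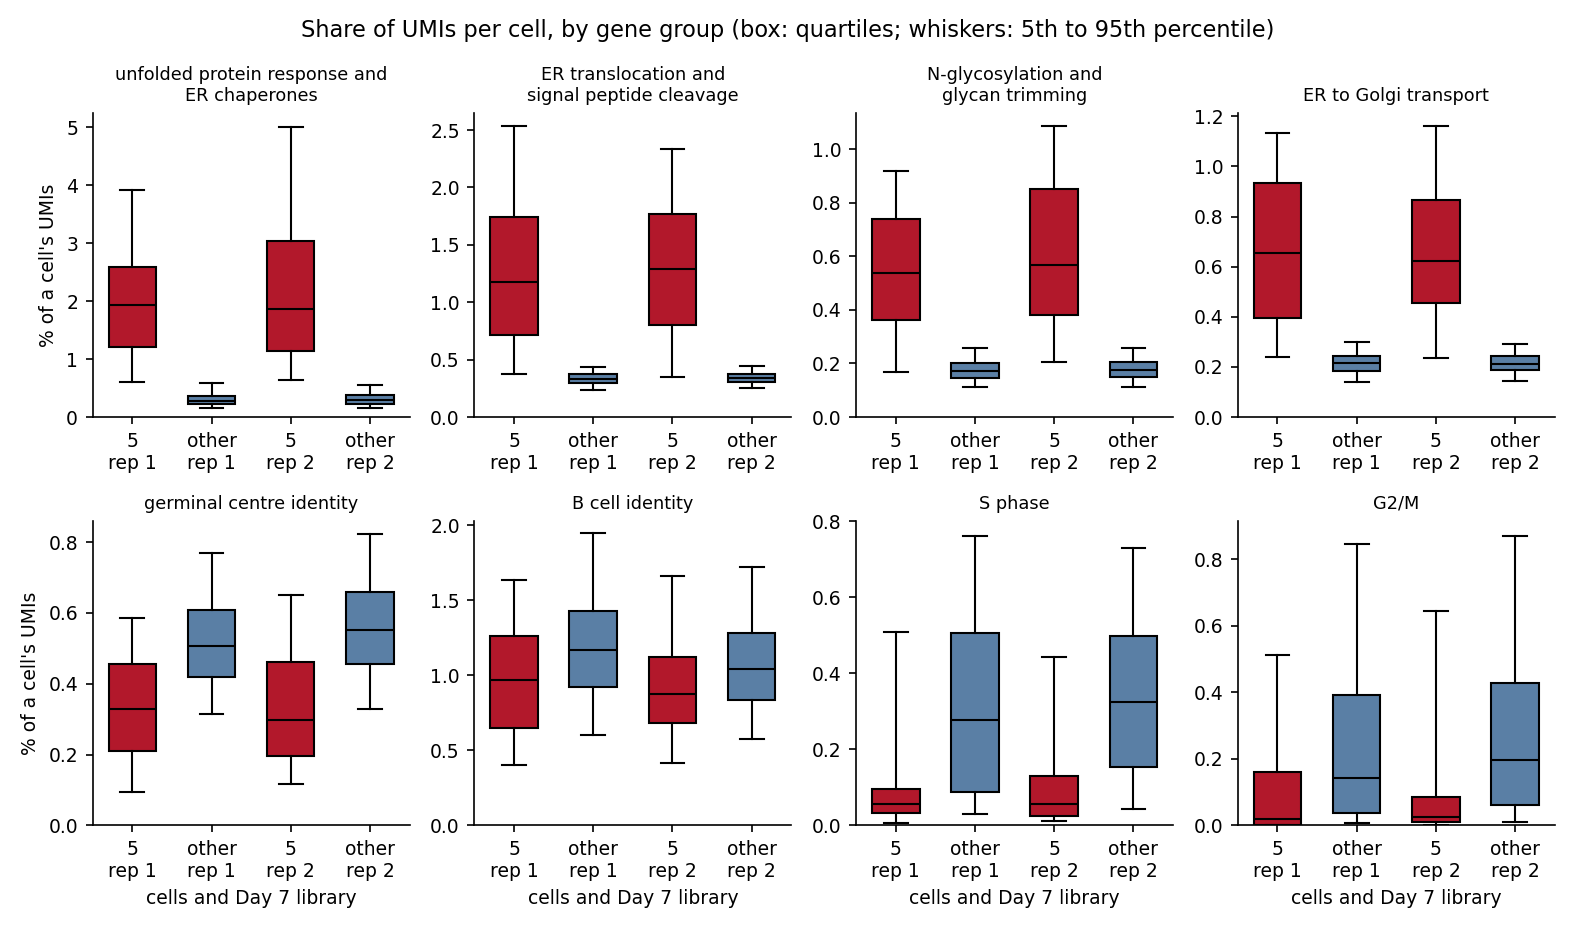
Percent of a cell's UMIs taken by 8 gene lists in cluster 5 (5) and the other cells (other) of each Day 7 library, with boxes for quartiles and whiskers from the 5th to the 95th percentile. The chaperone list has medians of 1.93% and 1.86% in cluster 5 against 0.285% in the other cells, and the germinal centre, S phase and G2/M lists have lower medians in cluster 5.

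Among the cluster 5 cells of a library, those with a larger chaperone share also had more of the other secretory lists and less of the germinal centre list. The rank correlation with the ER-associated degradation list was 0.90 and 0.90 (n = 49 and 101 cells), and with the ER to Golgi list 0.86 and 0.91. In the other cells the same values were 0.32 and 0.28, and 0.17 and 0.24. With the germinal centre identity list it was -0.68 and -0.71, against -0.01 and -0.08 in the other cells. Jchain gave 0.51 and 0.62, Slpi 0.49 and 0.44, and the number of UMIs per cell -0.18 and -0.09. The cells of a library share its preparation, and shares of 1 total are tied to each other, so these are descriptions.

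The B cell programme was lower, in part. Of 25 measured B cell identity genes 10 were lower and 0 higher (median -0.98), beside 7.25% and 8.45% of all measured genes. Pax5, the factor that keeps B cell identity, was at 16.2 and 30.0 CPM against 142 and 115 CPM (log2 -2.53), Bach2, which holds back Prdm1, had -2.34, Spib -2.58 and Ebf1 -1.66. Cr2, the complement receptor CD21, was at 0 and 4.91 CPM against 37.6 and 27.2 CPM. Cd79a, the signalling chain of the B cell receptor, lay on the other side at 3409 and 3299 CPM against 1990 and 1865 CPM (log2 0.80). Ms4a1, the gene for CD20, had -1.20 ± 0.39 and did not pass the rule in both libraries.

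Of 18 measured germinal centre identity genes 7 were lower and 0 higher (median -0.82), beside 7.25% and 8.45% of all measured genes. Bcl6 was at 3.23 and 13.1 CPM against 87.6 and 74.9 CPM (log2 -4.76 with an interval of -7.04 to -3.21 from 3 counts in cluster 5, and -2.51). With all UMIs it was seen in 6.12% and 9.90% of cluster 5 cells against 70.0% and 68.1% of the other cells. After thinning it was seen in 0 of 49 cells in replicate 1 (by 3 counts, up to 6.12% of cells with a UMI at that depth) and in 4.95% of cells in replicate 2, against 34.7% and 30.4%. Id3, an inhibitor of E proteins, was at 11.9 and 18.0 CPM against 191 and 188 CPM (log2 -3.70). Mef2b (0.52) and Rgs13 (-0.32), which also mark germinal centre B cells, were not lower by the rule. Dek, a chromatin protein gene outside the lists, was at 53.9 and 58.4 CPM against 484 and 505 CPM (log2 -3.14). Treml2 was at 1.08 and 1.64 CPM against 35.9 and 30.3 CPM, from 1 and 3 counts in cluster 5.

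Antigen presentation was not lower as a group. Of 11 measured MHC class II genes 2 were higher and 1 lower (median 0.31), beside 8.45% and 7.25% of all measured genes. H2-DMb1, part of the peptide exchange factor, was at 105 and 73.7 CPM against 40.1 and 35.7 CPM (log2 1.21), and the protease gene Ctss at 470 and 466 CPM against 209 and 208 CPM (log2 1.17). Ciita, the class II transactivator, was at 64.7 and 62.8 CPM against 135 and 126 CPM (log2 -1.03), and Cd74 was at 22203 and 23278 CPM against 17785 and 17086 CPM (log2 0.38). Ciita was thus lower while 2 of the class II pathway genes were higher.

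Light zone activation genes were mixed, with 2 of 14 higher and 2 lower (median -0.38), beside 8.45% and 7.25% of all measured genes. Yet the authors' deposited zone call put 81.6% and 84.2% of cluster 5 in the light zone, against 43.0% and 40.1% of other cells. Egr2, an early response factor, was at 62.5 and 49.1 CPM against 6.03 and 7.61 CPM (log2 3.03), and Cd69 had 1.08. Cd86, the costimulatory ligand that marks light zone cells, had -2.01, and the NF-kB subunit Rel -1.24. How the deposited call was made is not given in the sources used here.

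Of 10 measured trafficking receptors 4 were higher and 1 lower (median 0.75). Selplg, the P-selectin ligand, was at 128 and 155 CPM against 7.57 and 6.32 CPM (log2 4.35), Cxcr3, a receptor for inflammatory chemokines, at 25.9 and 31.1 CPM against 3.25 and 2.40 CPM (log2 3.35), and S1pr1, the receptor for exit to the blood, had 2.68. Cxcr4, which guides cells to the dark zone and bone marrow plasma cells to their niche, was lower at 22.6 and 19.1 CPM against 70.3 and 50.8 CPM (log2 -1.52). Of 13 survival and death genes, Pim1 (1.24) and Pim2 (1.68), encoding kinases, were higher and Bid (-1.16), a death agonist gene, was lower, with a median of -0.30. These small counts stand beside 8.45% higher and 7.25% lower over all measured genes.

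By the deposited phase call most of the cluster was in G1, which took 40 of 49 cells (81.6%, interval 68.0 to 91.2) and 81 of 101 cells (80.2%, interval 71.1 to 87.5), against 45.5% and 36.4% of the other cells. Of 18 S phase genes 11 were lower and 0 higher (median -1.46). Of 19 G2/M genes 8 were lower and 0 higher (median -1.14), beside 7.25% and 8.45% of all measured genes. Mki67 was at 300 and 267 CPM against 526 and 523 CPM, short of the rule. With all UMIs it was seen in 63.3% and 69.3% of cluster 5 cells against 80.4% and 87.9% of the other cells, and after thinning in 38.8% and 47.5% against 63.6% and 70.3%. The D cyclin genes went in opposite directions. Ccnd2 was at 74.4 and 122 CPM against 16.4 and 29.3 CPM (log2 2.12), whereas Ccnd3, the cyclin of dark zone division, was at 59.3 and 79.2 CPM against 377 and 329 CPM (log2 -2.36). The inhibitor gene Cdkn1b (1.88) was higher, as was Btg2, an antiproliferative gene, at 241 and 224 CPM against 91.9 and 73.5 CPM. With G1 cells compared with G1 cells only, 482 genes were higher and 367 lower, of which 434 and 269 were among those above.

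The 29 cycling cells of cluster 5 (9 and 20) had the secretory lists at like levels. Against the 121 G1 cells of the cluster, 312 of 5440 measured genes were higher (5.74%) and 58 lower (1.07%). None of the 12 transcription factors and none of the genes in the 5 ER and Golgi lists passed the rule in either direction, by size alone. The 15 of 18 S phase and 19 of 19 G2/M genes that were higher follow from the phase call. On the lower side were Prg2, at 116 and 201 CPM in cycling against 1456 and 1079 CPM in G1 cells (log2 -3.04), 3 genes of the integrated stress response, Chac1, Ddit4 and Asns, and Egr2. Slpi (log2 -3.87 and -0.82) and Jchain (-1.78 and -0.36) were lower in cycling cells of each library, but short of the rule in replicate 2.

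Stress, growth and metabolism lists differed in how many genes passed, beside 8.45% higher and 7.25% lower over all measured genes. The integrated stress response list had 5 of 11 measured genes higher and 0 lower (median 0.96). Chac1, a glutathione-degrading enzyme gene, was at 22.6 and 22.4 CPM against 3.45 and 1.32 CPM (log2 3.40), Asns, asparagine synthetase, at 84.1 and 67.2 CPM against 16.1 and 19.2 CPM (log2 2.10), and Ddit3, the factor CHOP, had 2.04. Of 9 amino acid transporters Slc3a2, the heavy chain of CD98, was at 318 and 353 CPM against 59.7 and 64.8 CPM (log2 2.43), Slc43a1 was also higher (1.48), and Slc6a6 lower (-2.04). Of 15 MYC-driven growth genes 2 were lower, Apex1 (-2.02) and Nop56 (-1.29), and 0 higher. Myc itself was at 26.9 and 65.5 CPM against 57.9 and 65.4 CPM and thus differed between the libraries.

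By the same size rule, glycolysis (13 genes), nuclear oxidative phosphorylation (20) and the proteasome (19) had 0 genes higher and 0 lower, with medians of -0.42, -0.04 and -0.03. Over all measured genes 8.45% were higher and 7.25% lower. Of 20 aminoacyl tRNA synthetases, only Nars (1.11) and Sars (1.07) were higher, near that share. Of 10 autophagy genes Sqstm1 (1.30) and Map1lc3b (1.30) were higher, and of 4 interferon response genes Bst2 (2.50), Isg15 (1.90) and Irf7 (1.24). The chromatin regulators Dnmt1 (-1.55), Hdac1 (-1.17) and Tet3 (-1.01) were lower, of 8 measured.

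Between the 2 libraries, cluster 5 itself differed by a log2 of 1 or more in 148 of 5760 genes (2.57%). The 3 named next were chosen after their values were seen. Socs3, a cytokine feedback inhibitor gene, was at 15.1 CPM in replicate 1 and 60.6 CPM in replicate 2, and Atf5, a stress response factor, at 80.8 and 27.8 CPM. The pseudogene Rpl36-ps3, at 178 and 37.7 CPM, differed as much in the other cells (186 and 40.9 CPM), so not all of these differences belong to the cluster.

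Cells of the same kind were found in the other libraries by the same 6 markers, as the clusters with at least 4 of them at 10 CPM or more and 4 times the level of the remaining cells. They made up 0.790% and 0.667% of the Day 14 libraries (143 cells) and 3.58% of the control and 1.86% of the KO chimaera library (288 and 136 cells). The Day 14 gate differs from that of Day 7, so gate and day cannot be told apart in these shares. Each chimaera group is 1 library and has no replicate check. Of the 485 higher Day 7 genes that are not markers, 394 were measured at Day 14 and 270 passed the same rule there (68.5%, against 5.93% of all genes measured); in the chimaeras 324 of 391 did (82.9%, against 9.16%). Of the 421 lower genes, 168 of 394 (42.6%, against 5.42%) and 166 of 371 (44.7%, against 6.18%) passed. None passed in the opposite direction. The Day 14 and chimaera cells were not used to choose the Day 7 cluster, but their clusters were picked with the same markers.

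**Figure D5:**
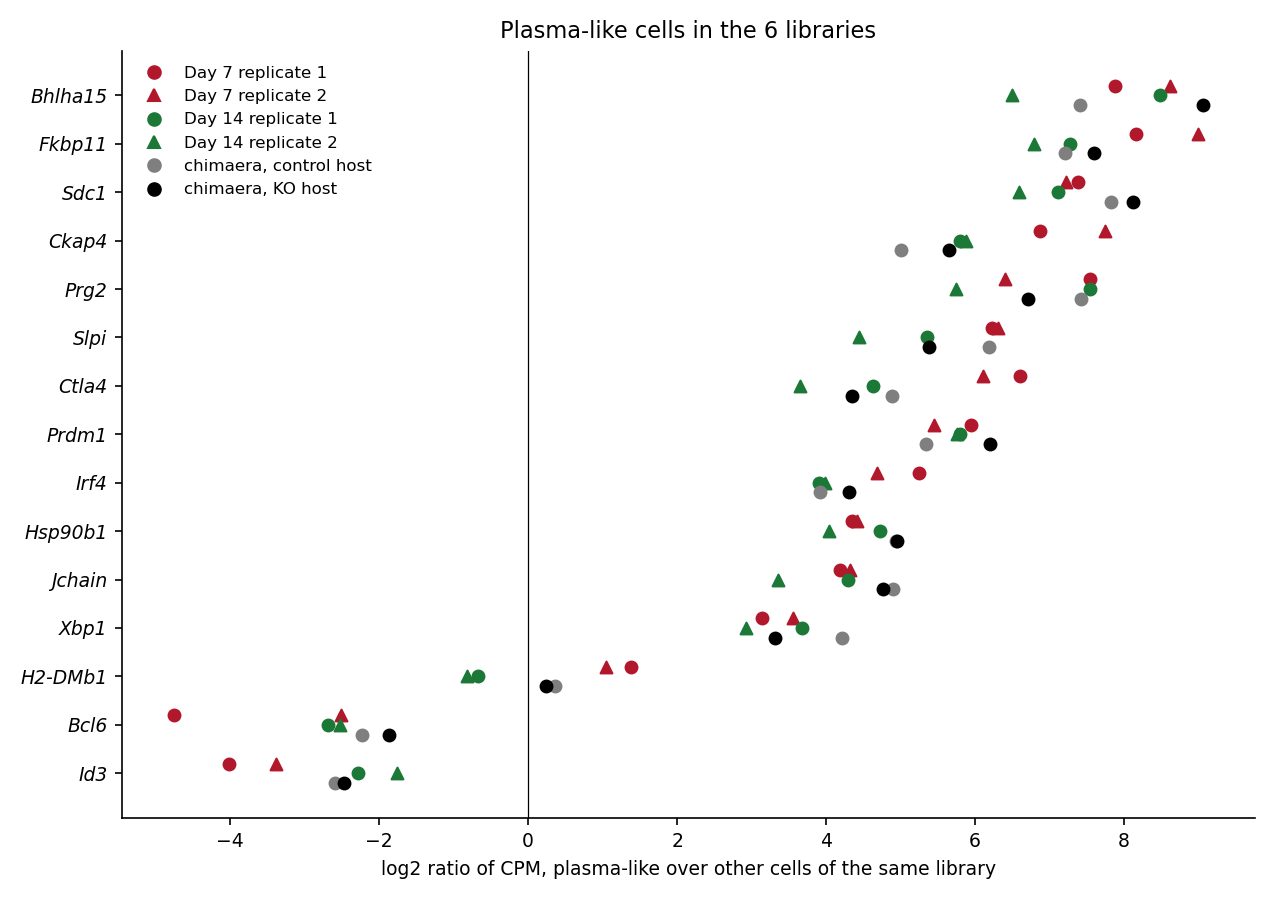
Log2 ratio of CPM in plasma-like to other cells of the same library for 15 genes, 1 point for each of the 6 libraries, with colour for the group and shape for the replicate. Prdm1 lies between 5.34 and 6.21 in all 6, while Irf4 is highest in the Day 7 pair (5.24 and 4.68).

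The ratio of plasma-like to other cells was then tested for a difference between Day 14 and Day 7 with edgeR's quasi-likelihood test on summed counts (2 libraries a day, 2 residual degrees of freedom among the 8 sums). Of 11277 genes, 40 had a ratio higher at Day 14 (0.355%) and 42 a lower one (0.372%) at a Benjamini-Hochberg adjusted p under 0.05. These counts rest on all libraries. They were 2 and 7 without Day 7 replicate 1, 1 and 1 without Day 7 replicate 2, 20 and 73 without Day 14 replicate 1, and 6 and 18 without Day 14 replicate 2. Depth differed between the days too, with median UMIs of 3824.5 and 4428 in the Day 14 plasma-like cells. By the deposited call, 81.6% and 80.2% of plasma-like cells were in G1 at Day 7, and 69.4% and 56.3% at Day 14. The other cells had 45.5% and 36.4% at Day 7, and 42.0% and 41.1% at Day 14. Median mitochondrial shares of plasma-like cells were 2.36% and 2.41% at Day 7, and 6.82% and 7.38% at Day 14. The part of these differences was not tested.

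Among the factors, only Irf4 of 12 tested passed. Its log2 ratio was 5.24 and 4.68 at Day 7 and 3.90 and 3.99 at Day 14, a difference of -0.92 (SE 0.213, edgeR adjusted p = 0.0117). It passed in 5 of the 10 alternatives run (adjusted p up to 0.449) and did not pass with DESeq2, when thinned, without either Day 7 replicate, or without Day 14 replicate 2. Prdm1 had a difference of 0.18 (edgeR adjusted p = 0.899) and Xbp1 one of 0.02 (adjusted p = 0.998). Of the 20 surface and secreted products, Slpi and Slc3a2 passed. Slpi had log2 ratios of 6.22 and 6.31 at Day 7 and 5.35 and 4.44 at Day 14 (difference -1.30, SE 0.165, edgeR adjusted p = 3.77e-08). Slpi passed in 7 of 10 alternatives (adjusted p up to 0.425) and Slc3a2 in 5 (up to 0.652). For Sdc1 (-0.33), Prg2 (-0.13), Jchain (-0.36), Fkbp11 (-1.56) and Bhlha15 (-0.91) the difference did not pass. Prdm1, Slpi, Sdc1, Prg2, Fkbp11 and Bhlha15 are the markers that name cluster 5 and picked the Day 14 cluster. Their p-values come from genes used in that selection, so their differences are descriptions. Without Day 14 replicate 1, Jchain (-0.99) and Prg2 (-1.23) passed.

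Of the 21 tested chaperone genes Dnajb9 (-1.69) and Ero1lb (-0.98) passed, and of the other secretory lists Edem1 (-0.83), Ssr4 (-0.70) and Tmed10 (-0.76). Dnajb9 passed in 8 of 10 alternatives (adjusted p up to 0.558), Ero1lb and Edem1 in 5 (up to 0.985), and Ssr4 (up to 0.985) and Tmed10 (up to 0.955) in 4. Hsp90b1 had a difference of 0.05. H2-DMb1 (-1.89, SE 0.245, edgeR adjusted p = 5.74e-08) passed in all 10 alternatives run, with adjusted p between 1.01e-13 and 0.0363. It was above the other cells at Day 7 and below them at Day 14 (mean log2 ratios 1.21 and -0.75). Ctla4 (-1.96), Ckap4 (-1.52) and Cd68 (-2.14) had lower ratios at Day 14, but Ctla4 passed in 5 of 10 alternatives (adjusted p up to 0.715), Ckap4 in 4 (up to 0.985) and Cd68 in 4 (up to 0.913). On the higher side, Id3 had a difference of 1.63 (SE 0.437, edgeR adjusted p = 0.0481), and Ccnd2 one of 1.01. Id3 passed in 1 of 10 alternatives (adjusted p up to 0.710) and Ccnd2 in 3 (up to 0.894).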

How the data were processed

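Single-cell RNA sequencing counts were analysed in 6 mouse spleen libraries. The authors deposited whole-number UMI counts per gene and cell, not normalised. Cell Ranger, Seurat and the mm10 build are named, per the submitters' processing notes, without versions. Cluster numbers, phases and zone calls are the authors' deposited ones, and how they were made is not given in the sources used here. All deposited cells were kept. No doublet caller was run; an alternative left out the 5% of cells with the most UMIs.

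Counts were summed per library over cluster 5 and over the other cells and divided by the summed counts of all genes other than immunoglobulin genes (scaled to CPM). A side with no count was set to 3 counts of its total. Shares carry exact Clopper-Pearson 95% intervals. Precision follows the depth, from 927915 UMIs in cluster 5 of replicate 1 to 52179426 in the other cells of replicate 2. The Day 14 difference was tested with edgeR 4.0.16 in R 4.3.3 (TMM, filterByExpr), with DESeq2 1.42.0 as an alternative. Python 3.11.15, numpy 2.4.6, scipy 1.17.1 and pandas 2.3.3 were used, and matplotlib 3.10.9 drew the figures. Tested on simulated data, the Day 14 difference test recovered 29% of 100 genes changed by a log2 of 1 and 81% of 100 changed by 2, with 4 calls among 10888 unchanged genes. The changed genes were well counted ones, and counts were drawn with the trended spread of the test's own model. Real data may thus give lower recovery and more false calls. The size rule recovered 100% of 200 changed genes with 0 calls among 5248 others, in data with counting error only.

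Named genes were the markers, the 12 highest and 12 lowest past the size rule, the 8 largest differences per direction between the days, and the 2 members at each end of a list; the rest were named from the lists. The cluster, its markers and the 38 gene and marker lists were chosen with earlier results of these data known. Some genes of these lists are counted but not reported by name here.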

Additional observations from a re-analysis of the deposited data

Results flagged for a closer look

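The plasma-like to other cell ratio differed between Day 14 and Day 7 for 40 genes with a higher and 42 with a lower ratio at Day 14, by the edgeR test of the difference. The log2 differences of the named genes above 0 were 11.53 for Hba-a2, 7.12 for Hbb-bs, 2.85 for Hist1h3h, 1.98 for Hbb-bt, 1.95 for Ly6k, 1.85 for Nrgn, 1.81 for Hist1h2af, 1.72 for Fbxo5, 1.63 for Id3 and 1.01 for Ccnd2. Of these, Hbb-bs passed in all 10 alternatives run, Nrgn in 6, Hbb-bt in 4, Hist1h2af in 3, and Ly6k and Fbxo5 in 1 each. Hba-a2 and Hist1h3h passed in 3 of 9. Hba-a2 had no count in cluster 5, so its fitted value is no bound. Hbb-bs counts of the other Day 7 cells lay mainly in cluster 3. Of 64 clustered histone genes, grouped after their values were seen, 10 were among the 40.

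The named differences below 0 were -0.70 for Ssr4, -0.76 for Tmed10, -0.83 for Edem1, -0.92 for Irf4, -0.98 for Ero1lb, -1.11 for Slc3a2, -1.30 for Slpi, -1.52 for Ckap4, -1.69 for Dnajb9, -1.89 for H2-DMb1, -1.96 for Ctla4, -2.14 for Cd68, -2.24 for Nfkbid, -2.39 for S100a10, -2.84 for Rnf103, -2.90 for Parm1, -2.97 for Mfsd10, -2.99 for Fosb and -4.28 for Plac8. Rnf103 passed in 8 of 10 alternatives, Fosb in 7, Nfkbid in 6, S100a10 and Mfsd10 in 4 and Parm1 in 3, and Plac8 in 8 of 9. Leaving out 1 library gave -13.33 to -1.75 for S100a10, -11.24 to -2.31 for Parm1 and -11.88 to -1.94 for Mfsd10. The sizes of those 3 are thus poorly fixed. Slpi is a marker that also picked the Day 14 cluster, so its difference is a description. Day, gate and depth cannot be told apart in these values, and the share of plasma-like cells in G1 also differed between the days.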

How the results depend on the processing

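The Day 7 counts of 491 higher and 421 lower genes moved by over 1.5 times under these settings: 3618 higher and 714 lower with no filter on CPM, 636 lower with a minimum of 5 CPM, and 175 higher and 52 lower at an absolute log2 ratio of 2. Without 1 replicate the lower count was 684 to 694 and the higher 640 to 648. With no filter 83.5% of the called genes were higher, against 53.8%. Smaller moves came with TMM scaling, at 531 higher and 363 lower. With the other cells weighted to the phases of cluster 5, 464 were higher and 316 lower. Of those, 444 and 247 were among the 491 and 421. The Day 14 counts of 40 higher and 42 lower were 3 and 14 with DESeq2, 12 and 79 with no filter on low counts, 1 and 6 thinned to the smallest plasma-like sum, and, for the higher, 14 in G1 cells only. Leaving out 1 library gave 1 to 20 higher and 1 to 73 lower. The Day 14 minus Day 7 difference of Hist1h3h turned to -7.29 in G1 cells only (edgeR adjusted p = 0.891; range over its alternatives 0.0220 to 0.891). Differences that did not pass changed sign. Hsp90b1 was at -0.033 with DESeq2, -0.13 with no filter on low counts, -0.18 when thinned and -0.24 in G1 cells. Xbp1 was at -0.070 with DESeq2 and -0.16 with no filter, and Bhlha15 (0.11) and Prdm1 (-0.33) turned when thinned. Leaving out 1 library gave -0.44 to 0.40 for Hsp90b1, -0.52 to 0.38 for Xbp1, -0.12 to 0.36 for Prdm1, -1.23 to 0.72 for Prg2, -0.99 to 0.11 for Jchain and -1.90 to 0.20 for Bhlha15. Fkbp11 passed in G1 cells (-3.08), and Jchain passed with no filter on low counts (-0.55) and with crossed pairs (-0.36). The replicate numbers share only a number (correlation of deviations -0.0101): with them as a replicate block the counts were 16 and 28, and with crossed pairs, added after the data were seen, 76 and 62. The causes were not tested. Day 7 values rest on 2 libraries with no test, and 49 cells limit replicate 1. The alternative that kept only the Day 14 cluster with most Sdc1 was not run, as 1 cluster qualified.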

Other observations

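Of the 491 genes higher in cluster 5, 122 stood in a gene list. The following were picked by hand from the rest after their values were seen, among genes with high levels in cluster 5. They are not the highest in order. Malat1 (4162 and 5415 CPM in cluster 5), Ftl1 (2558 and 2532 CPM) and Ly6a (1320 and 2078 CPM) were also higher by the rule. H2-K1 was at 3312 and 3974 CPM against 1209 and 1300 CPM (log2 1.53), B2m, the class I light chain, at 2660 and 3004 CPM against 846 and 913 CPM (log2 1.69), and Tapbp, which loads peptide onto class I, at 363 and 429 CPM against 105 and 115 CPM (log2 1.84). Apoe, a lipid carrier gene, was at 3971 and 2947 CPM against 375 and 223 CPM (log2 3.57). Sub1, a transcription coactivator, was at 1429 and 1741 CPM against 34.2 and 59.2 CPM (log2 5.13), a larger ratio than that of Irf4. Fam46c, a poly(A) polymerase known in plasma cells and myeloma, had 4.19, and Rrbp1, a ribosome receptor of the rough ER, 3.09.

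On the lower side, Anxa2 stood at 63.6 and 67.7 CPM against 415 and 345 CPM (log2 -2.53), and Tuba1b and Stmn1, which handle microtubules, both had -1.70.

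Of the other Day 7 clusters, cluster 2 had the highest level of Irf4, Derl3 and Hsp90b1 in each library. Irf4 was at 17.7 and 15.5 CPM there, Derl3 at 45.6 and 40.0 CPM and Hsp90b1 at 390 and 315 CPM, all below cluster 5. Of the markers, Slpi (158 and 193 CPM), Sdc1 (1.06 and 0.656 CPM) and Bhlha15 (1.06 and 0.246 CPM) were also highest there in each library. For Sdc1 and Bhlha15 these levels rest on few counts. Prg2 and Fkbp11 were not highest there in each library. Jchain and Mzb1 went the other way. Jchain (854 and 942 CPM) and Mzb1 (652 and 588 CPM) were lower in cluster 2 than in any other cluster of each library. Prdm1 was highest in cluster 2 in replicate 1 (6.36 CPM), but in replicate 2 it was at 4.84 CPM in cluster 2 and 5.39 CPM in cluster 4.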
